A study of Mus musculus with 4 samples.

Results

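The surface ectoderm epithelium of the pharyngeal region was represented by 1091 of the 35228 cells that passed the filters on cells. Cells were kept when at least 3000 genes were detected and mitochondrial transcripts made up at most 10% of the unique molecular identifiers (UMIs, each standing for 1 captured RNA molecule). A kept cell was epithelial when it held at least 2 UMIs of Epcam, UMIs of at least 3 of the genes Epcam, Cldn6, Cldn7 and Cdh1, and none of the endothelial cadherin gene Cdh5, which left 2402 cells. An epithelial cell was ectodermal when at least 2 of Foxi2, Trp63, Tfap2a, Sostdc1 and Wnt6 were detected and more of these than of the endoderm genes Pax9, Pax1, Foxa1, Foxa2 and Shh or the otic genes Oc90, Fbxo2, Lmx1a, Sox10 and Col9a2. By the same counting, 476 cells were endodermal and 494 were otic. The cells were therefore chosen by measured expression, and levels of the ectoderm against the other epithelia are given as a description with no test.

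Single-cell RNA sequencing was performed on cells sorted for EGFP from E9.5 mouse embryos, from a dissection that ran from the first pharyngeal arch onward and took in the heart. Conditional heterozygotes (cHet; Tbx1Cre/+; Kmt2d F/+; GFP F/+) were compared with conditional knockouts (cKO; Tbx1Cre/+; Kmt2d F/F; GFP F/+), with 2 libraries per genotype. Each Rep1 library pooled 4 embryos and was made with the Next GEM kit, and each Rep2 library pooled 3 embryos and was made with the GEM-X kit, so that the replicate number also marks the chemistry. The comparison asks how losing the second copy of Kmt2d changes RNA levels in cells that have expressed Tbx1. Both genotypes carry a Tbx1Cre knock-in allele, which leaves 1 working copy of Tbx1, and a Cre-dependent GFP reporter, and the cHet cells already lack 1 copy of Kmt2d, so no library is wild type. Cre acts wherever Tbx1 has been expressed, and only ectoderm with that history entered the sort. Pools mix embryos, so the library is the replicate, with 2 pools per genotype. The main test compares genotypes within replicate numbers. Its p-values therefore rest on how far the genotype difference varied between the 2 pairs of pools, with information on spread shared across genes.

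The surface ectoderm covers the pharyngeal arches and dips between them as the clefts, where it meets the endodermal pouches. It gives rise to epidermis and, in thickened patches called epibranchial placodes, to sensory neurons of the cranial ganglia, and it sends signals such as FGFs, BMPs, WNTs and PDGFs to the mesenchyme beneath it. KMT2D is a histone methyltransferase that places methyl groups on histone H3 lysine 4 at enhancers, and TBX1 is a T-box transcription factor of the pharyngeal epithelia and mesoderm.

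The ectoderm comprised 253 cells in cHet Rep1, 107 in cKO Rep1, 238 in cHet Rep2 and 493 in cKO Rep2. Where 4 values follow each other below, they are in this order of libraries (Rep1 cHet and cKO, then Rep2 cHet and cKO). The median depth was 20983, 24756, 22332.5 and 17886 UMIs per cell, and the summed counts on which the genotype test rests were 6492281, 3026599, 5743741 and 9417086 UMIs. The cKO Rep1 library thus had the fewest ectoderm cells and the smallest sum. The cHet Rep1 file listed 37093 barcodes against 9307 to 16775 in the other libraries, and 6242 of them reached 3000 genes. The study counted fewer cells than that for this library, whereas its counts for the other 3 equal the barcodes listed, so the shares and sums of cHet Rep1 rest on the filter used here. Libraries made with the same kit shared 12 and 46 kept barcodes, none of them of an ectoderm cell. A doublet caller marked 29, 11, 20 and 41 ectoderm cells, which is 11.5%, 10.3%, 8.40% and 8.32% of them. Among all barcodes with at least 3000 genes it marked 5.78%, 5.38%, 4.03% and 5.06%, a lower share in every library. The marked ectoderm cells were kept in the main results.

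The rule genes behaved as an ectodermal set, which follows from the choice of cells. Foxi2, a forkhead factor of cranial ectoderm, was detected in 79.8% to 88.0% of ectoderm cells per library, in 0% to 2.31% of endoderm cells and in 0% to 1.64% of otic cells. Tfap2a, the AP-2α factor of ectoderm and neural crest, was detected in 84.6% to 90.3% of ectoderm cells and also in 14.5% to 21.4% of otic cells. Trp63, the p63 factor of stratifying epithelia, was found in 51.1% to 59.2% of ectoderm cells and in 15.2% to 25.4% of endoderm cells, so it separated the ectoderm from otic cells more sharply than from endoderm. Sostdc1, a secreted inhibitor of BMP and WNT signalling, reached 71.8% to 73.9% and Wnt6, a WNT ligand, 48.5% to 67.2%. Epcam, an epithelial adhesion molecule, lay between 593 and 640.4 counts per 1000000 UMIs (CPM) in ectoderm and between 595 and 645 CPM in endoderm.

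Of the 1091 cells, 299 had UMIs of all 5 ectoderm genes, 285 of 4, 258 of 3 and 249 of exactly 2. No endoderm or otic rule gene was detected in 737 cells. Just inside the threshold, the cells with exactly 2 ectoderm genes held a median of 5 to 6 UMIs of the set per library. Just outside it, 71 epithelial cells held 1 such gene and no endoderm or otic gene, with a median of 2 to 2.5 UMIs, and 47 cells were tied at 2 or more genes with another set. The defining genes of other cell types were low but not all absent. The endothelial list summed to 4.63 to 13.6 CPM in ectoderm against 117 to 211 CPM in the non-epithelial cells, of which 13.4 to 29.8 CPM were of Cdh5, a gene the rule holds at 0 in ectoderm, and the red cell list to 2.44 to 9.55 CPM. The mesenchymal list (8 genes, all detected) summed to 192, 235, 183 and 219 CPM, against 672 to 1070 CPM in the non-epithelial cells. The part of doublets and free RNA in these sums was not tested.

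The ectoderm share of all kept cells differed between genotypes in opposite directions in the replicate pairs. It was 4.06% (95% exact binomial interval 3.58% to 4.58%) in cHet Rep1 and 1.61% (1.32% to 1.94%) in cKO Rep1. In the second pair it was 2.44% (2.15% to 2.77%) in cHet and 3.92% (3.58% to 4.27%) in cKO. The intervals cover counting error only. The cKO pool was thus lower in the first pair and higher in the second. Among kept cells with a Y-linked UMI and no Xist, a split chosen after seeing the data, the libraries gave 5.82%, 1.31%, 2.89% and 2.82%. Among those with Xist and no Y-linked UMI, the libraries gave 3.45%, 1.72%, 2.32% and 4.60%. In the first pair the cKO was thus lower in both kinds of cell. The means were 3.25% ± 1.14 (SD, n = 2) in cHet and 2.76% ± 1.63 (SD, n = 2) in cKO, and a two-sided exact permutation test gave p = 0.667, where 0.333 is the smallest value that 2 against 2 libraries allow. As a share of epithelial cells, the ectoderm made up 56.3% and 41.1% in cHet and 39.1% and 44.8% in cKO (exact permutation p = 0.667). Dissection and sorting also set these shares.

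**Figure D1:**
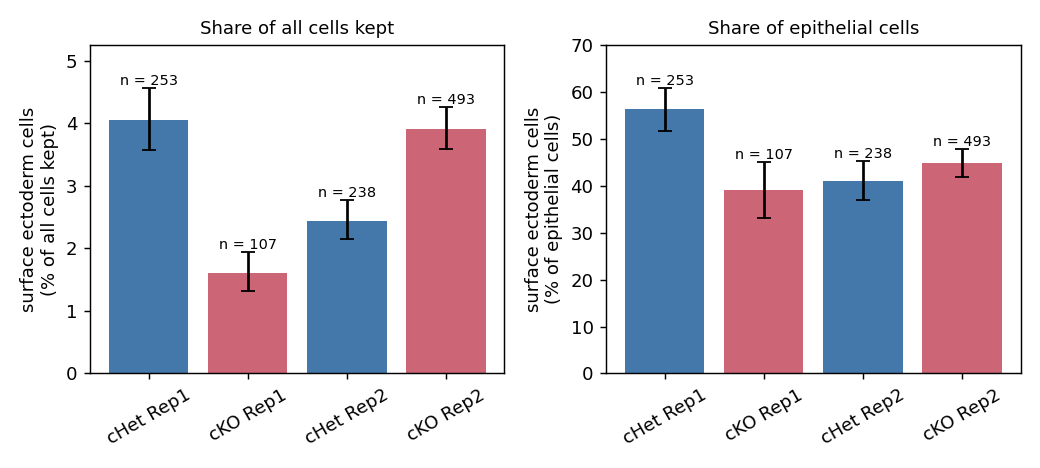
Bars give the surface ectoderm cells of each of the 4 libraries as a percentage of all kept cells (left) and of epithelial cells (right), with exact 95% binomial intervals, cHet in blue, cKO in red and the number of ectoderm cells above each bar. Of all kept cells, the cKO library lies below its cHet partner in Rep1 (1.61% against 4.06%) and above it in Rep2 (3.92% against 2.44%).

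Among 8114 genes at 10 CPM or more, 57 (0.702%) lay at least 2-fold above both endoderm and otic epithelium in every library, after 5 CPM was added to each level. Of the genes outside the rule with at least 50 CPM in the ectoderm of every library, Hapln1, a link protein that binds hyaluronan to proteoglycans, showed the widest gap. Its level was 132, 162, 325 and 253 CPM, at most 4.44 CPM in endoderm and at most 17.5 CPM in otic cells, so that it was 8.88 to 14.7 times the higher of them. Hapln1 was not specific to ectoderm, since the non-epithelial cells held 64.7 to 140.3 CPM.

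Pdlim1, an actin-associated LIM protein, lay 4.11 to 5.28 times above the other epithelia, and Plxna2, a semaphorin receptor, 3.86 to 4.32 times. Galnt18 and Galnt3, enzymes that start O-linked sugar chains, lay 3.62 to 5.36 and 2.34 to 4.72 times above them. Galnt3 in particular was at 158, 159.6, 336 and 335 CPM in ectoderm and at 3.12 to 7.09 CPM in non-epithelial cells. Slc2a3, a glucose transporter, was at 237, 239.9, 362 and 285 CPM in ectoderm and at 8.15 to 14.9 CPM in non-epithelial cells. Cxcl12, a chemokine that guides migrating cells, was at 215 to 303 CPM in ectoderm, 85.9 to 90.6 CPM in endoderm and 13.2 to 31.7 CPM in otic cells. The carboxypeptidase gene Cpm, the large scaffold gene Ahnak, Adarb2, Hoxb3os, Slc35d1, Ubash3b, Ctnnd2 and Basp1 completed the 15 genes with the widest gaps at that level, each at least 2.21 times above the other epithelia in every library.

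**Figure D2:**
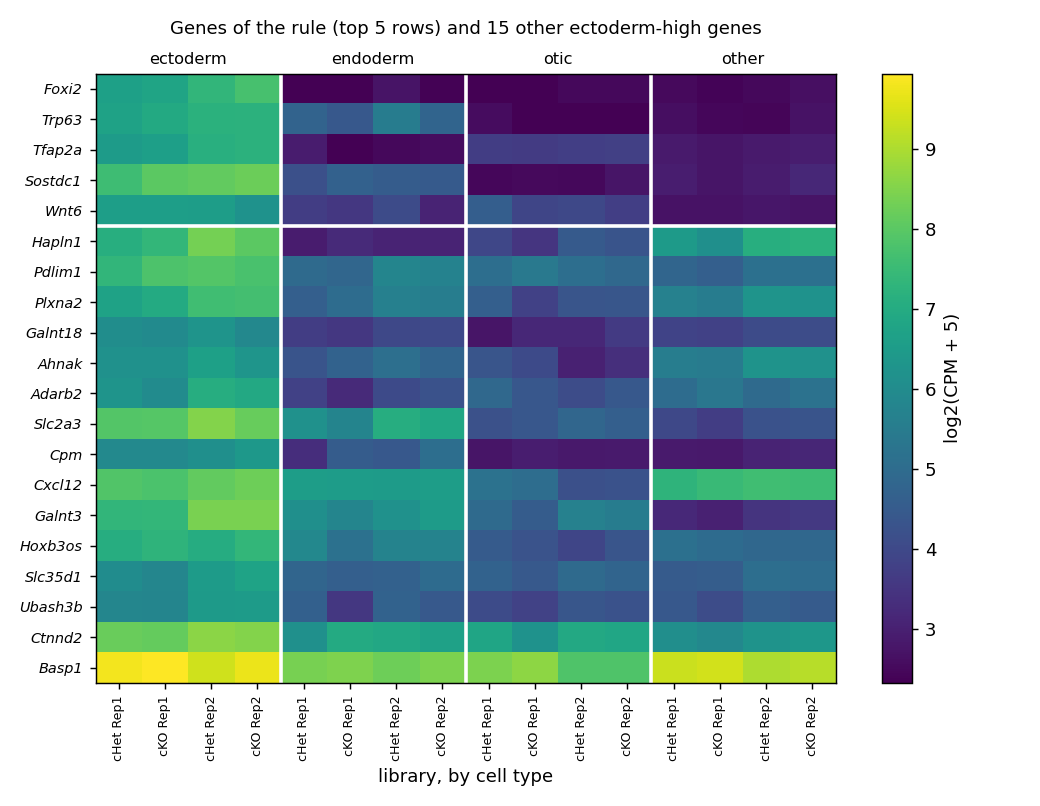
Heat map of the level, as log2 of CPM with 5 added, of the 5 rule genes (rows above the white line) and the 15 other genes with the widest gaps among those at 50 CPM or more in the ectoderm of every library (rows below it), with 1 column per library for ectoderm, endoderm, otic and all other kept cells. Each gene is higher in the ectoderm columns than in the endoderm and otic columns of the same library, while Ahnak, Cxcl12, Basp1 and Hapln1 are 1.07 to 2.42 times the level of the non-epithelial cells (5 CPM added).

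Transcription factors and signals of known ectodermal domains were present at lower levels. Tfap2b, an AP-2 factor, was at 34.2, 58.8, 60.8 and 65.6 CPM, and Msx2, a homeobox target of BMP signalling, at 38.2, 37.0, 64.1 and 72.2 CPM. Neurog2 and Phox2a, neurogenic factors of the epibranchial placodes, were at 42.3 to 119 and 44.8 to 119 CPM, with Neurog2 at 0 to 4.25 CPM in the other epithelia. Hoxb4 lay at 32.3 to 48.4 CPM, against at most 20 CPM in endoderm and 4.99 CPM in otic cells. Bmp2 (15.4 to 24.8 CPM) and Wnt4 (28.0 to 40.2 CPM) were the listed ligands at least 2-fold above both other epithelia among those at 10 CPM or more in every library. Sox2, a progenitor factor of sensory epithelia, was the 1 listed gene at least 2-fold below both, at 27.6 to 48.6 CPM. At 10 CPM or more, 2 of 13 surface ectoderm and early epidermis genes lay at least 2-fold above both other epithelia. So did 2 of 7 neurogenic, 1 of 9 regional, 2 of 14 arch signal and 0 of 12 preplacodal and epibranchial genes. Over all genes the share was 0.702%. The epibranchial placode markers summed to 456, 395, 733 and 819 CPM in ectoderm and 667, 628, 1224 and 1272 CPM in otic cells. In endoderm they summed to 355 to 600 CPM.

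The FGF ligand gene Fgf8 was shared with endoderm. It was at 199, 167, 187 and 214 CPM in ectoderm, 112 to 201 CPM in endoderm and 1.91 to 13.2 CPM in otic cells. Pdgfa, a growth factor for mesenchyme, was at 196, 256, 199 and 214 CPM in ectoderm and at 94.6 to 120.3 CPM in endoderm. Krt8 and Krt18, keratins of simple epithelia, lay at 143 to 207 and 225 to 327 CPM, whereas Krt5, Krt14 and Krt15, keratins of stratified epithelia, stayed below 5 CPM in every library. Tbx1 itself was at 34.04, 32.38, 27.16 and 24.95 CPM in ectoderm, against 57.3 to 90.5 CPM in endoderm and 81.3 to 111 CPM in otic cells. The ectoderm thus had the lowest Tbx1 level of the 3 epithelia in every library.

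The ectoderm cells were not uniform. Leiden clustering of the 1091 cells, with genes centred within each library, gave 8 groups that all 4 libraries contained. The groups were built from these same genes, so their leading genes describe them and were not tested. Folds given here are medians over the libraries with 5 CPM added, and percentages are of all cells of a group.

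Group 1 (215 cells) was led by Tafa1, Plcl1, Plagl1, Ccser1 and Hapln1. Hapln1 was detected in 97.2% of its cells against 51.1% of the rest, and Perp, a desmosomal protein and p63 target, in 73.5% against 20.7%. Trp63 was found in 91.6% of its cells, Tfap2b in 66.0% and Wnt4 in 69.8%. Fgf8, by contrast, was found in 7.44% of its cells and Neurog2 in 0.465%. Of the 8 fixed markers of early epidermis, Trp63, Tfap2b and Msx2 were at least 2-fold higher here, while Krt5 was at 4.51 CPM and Krt14 at 1.90 CPM, and the group was left unnamed.

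Group 2 (202 cells) was led by Nkx2-6, a homeobox gene of the caudal pharynx, found in 65.8% of its cells against 17.4% of the rest. Fgf8 reached 554 CPM there, against 128 CPM elsewhere. Spry4, a feedback inhibitor that FGF signalling induces, was in 40.1% of its cells against 9.67%, and Tgfb2 and Wnt9b were also among the leading genes. So were Pax9, an endoderm gene of the rule (32.7% against 11.02%), and Nkx2-5, a cardiac and pharyngeal factor (24.8% against 4.39%). Of the 13 fixed endoderm markers, Pax9 and Ripply3 were detected in at least 10% of group 2 and at least 2-fold higher there, and none of the 6 surface ectoderm markers was, and the group was left unnamed. Fgf8 was thus most abundant in cells outside group 1, in which few cells held it.

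Group 3 (161 cells) was led by Sfrp2, a secreted WNT inhibitor (57.1% against 29.1% of cells), and by Tmeff2, Stmn2, Cdkn2b and Dcc. Foxi2 was detected in 95.7% of these cells, Bmp2 in 41.0% against 13.9%, and the neurotrophin gene Bdnf in 64.0% against 31.0%. Stmn2, a microtubule regulator best known from neurons, was in 22.4% against 2.90%.

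Group 4 (159 cells) was led by Klhl14, Lmo3, Hoxb5, Meox1 and Hoxb4. Hoxb4 and Hoxb5, which mark more caudal positions along the body axis, were in 81.8% and 81.1% of cells, against 19.96% and 15.9% of the rest. Pax8, an otic and epibranchial factor, was in 73.6%, Sox2 in 72.3% and Fgf8 in 83.6%. Fgf9 was in 72.3% against 27.1%. With 2 of 6 caudal markers passing, the group was left unnamed.

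In group 5 (131 cells), no cell held a Hoxb4 UMI, which allows a share of cells with a UMI of up to 2.29% and does not limit the share that express the gene. Otx2, a homeobox gene of anterior head tissues, was in 30.5% of its cells at 39.4 CPM, against 2.51 CPM elsewhere. Its leading genes were Rarres1, D030025E07Rik, Trpm3, Atp6v1c2 and Frem1, a basement membrane protein (77.1% against 23.1%). Foxi2 was detected in 51.1% of these cells, against 85.8% of all ectoderm cells, and Fgf8 in 69.5%.

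Group 6 (120 cells) was led by Col3a1, Prrx1, Flrt2 and other mesenchymal genes, with Prrx1 in 72.5% and Pdgfra in 62.5% of cells. The doublet caller marked 74.2% of this group, against 0% to 7.41% of the other groups, and its median depth was 34860.5 UMIs. These cells passed the epithelial rule while carrying mesenchymal RNA, and the group was left unnamed.

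Group 7 (54 cells) was neuroblast-like, with all 7 fixed neuroblast markers at least 2-fold higher than in the rest. The proneural factors Neurog2 and Neurog1 were in 96.3% and 87.0% of its cells, the downstream factor Neurod1 in 81.5% at 423 CPM against 6.24 CPM, and the Notch ligand gene Dll1 in 81.5%. Phox2a was in 100%. Gadd45g, a stress and cell cycle exit gene, was in 94.4% of cells against 15.3% of the rest. Trp63 was found in 7.41% of these cells.

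Group 8 (49 cells) was led by Hand1, Pmp22, Rgs5, Tac2 and the BMP ligand gene Bmp5. Bmp5 was in 85.7% of cells against 14.8%. Msx2 was in 98.0% and Bambi, a BMP pseudoreceptor that BMP signalling induces, in 100.0% against 43.4%. The group held 8, 1, 9 and 31 cells in the 4 libraries, and Hand1 lay at 3.61 to 100.3 times the rest, the highest value being that of the single cell of cKO Rep1.

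The make-up differed between libraries. Group 1 made up 19.8%, 26.2%, 25.2% and 15.6% of ectoderm cells in the 4 libraries. Group 3 made up 10.7%, 13.1%, 13.9% and 17.6%, and group 5 16.2%, 11.2%, 11.8% and 10.1%. Group 6 made up 19.0%, 13.1%, 7.56% and 8.11%, so it was larger in both Next GEM libraries. The neuroblast-like group made up 4.35%, 6.54%, 7.14% and 3.85%, which went in opposite directions in the replicate pairs. Groups were formed by expression that could itself differ by genotype, and their shares were not tested.

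**Figure D3:**
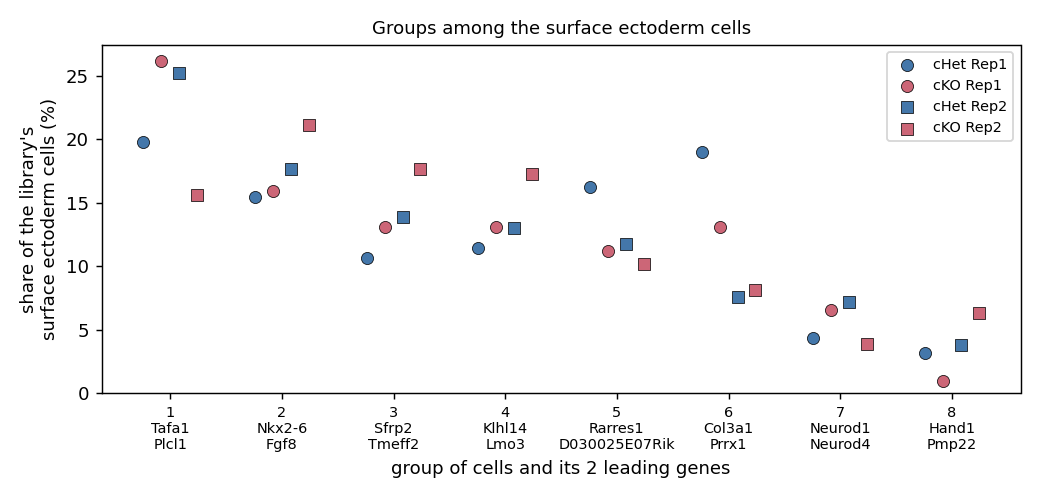
Share of each library's surface ectoderm cells (y axis, percent) in each of the 8 Leiden groups (x axis, with the 2 leading genes of each), with circles for Rep1, squares for Rep2, blue for cHet and red for cKO. The neuroblast-like group 7 ranges from 3.85% to 7.14%, and group 6, in which 74.2% of cells were called doublets, is largest in cHet Rep1 at 19.0%.

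The targeted gene was examined first. Kmt2d (chr15:98831669-98871204, minus strand, GRCm38) was at 19.7 and 24.5 CPM in cHet Rep1 and Rep2, and at 19.5 and 20.4 CPM in cKO Rep1 and Rep2. The log2 fold change of cKO against cHet was -0.14 (SE 0.17), with an adjusted p of 1 by edgeR's quasi-likelihood test with Benjamini-Hochberg adjustment. UMIs from the 3′ end can come from a transcript that lacks the floxed exons, so this level does not check the deletion. Tbx1, of which both genotypes have lost 1 copy, differed by -0.071 (SE 0.14; 0.078 after thinning each cell to 5000 UMIs).

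No gene passed an adjusted p under 0.05 between cKO and cHet ectoderm. Of 13055 genes tested by edgeR's quasi-likelihood test on library sums with the replicate as a block, 0 (0.0%) were called and 577 (4.42%) had an unadjusted p under 0.05, of which 249 (1.91%) were lower and 328 (2.51%) higher in cKO. DESeq2 also called 0, with 73 genes under an unadjusted p of 0.05. With a filter that kept every gene with at least 1 count, 81 genes passed, 25 lower and 56 higher, and other settings gave between 0 and 10. The genes below are those with the smallest unadjusted p in each direction and are described as values.

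Negr1, a cell adhesion molecule of the immunoglobulin family known from growing neurites, had the smallest p. It lies at chr3:156561794-157316445 (GRCm38, plus strand). Its level was 89.95 CPM in cHet Rep1, 132 in cKO Rep1, 102 in cHet Rep2 and 156 in cKO Rep2. Both cKO libraries lay above both cHet libraries. The log2 fold change was 0.61 (SE 0.08; 0.58 in Rep1 and 0.63 in Rep2), with an adjusted p of 0.108 in edgeR's quasi-likelihood test. The UMIs were spread over 115, 54, 122 and 257 cells. Leaving out called doublets gave 0.62 with an adjusted p of 0.0354, and DESeq2 gave 0.61 with an adjusted p of 1.

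Hs6st3, which adds sulfate to heparan sulfate chains that bind FGFs and other ligands, was at 243, 311, 406 and 571 CPM. The levels overlapped between genotypes across the replicates, while the cKO was higher within each replicate (log2 fold change 0.46, SE 0.07, adjusted p = 0.194, edgeR). Tox, a chromatin-binding factor, was at 65.5, 99.5, 89.3 and 113 CPM, and Cdh2, which encodes N-cadherin, at 72.7, 91.2, 77.0 and 106 CPM. Both were above all cHet levels in both cKO libraries. Dcc, the netrin receptor, was at 52.8, 89.9, 62.9 and 76.1 CPM, with a log2 fold change of 0.53 (SE 0.12). Gm49692, Tmeff2 and Stk26 were higher by 0.38 to 0.63. Tmeff2, Dcc and Hs6st3 were among the leading genes of group 3, which made up 10.7% and 13.9% of the ectoderm cells in cHet and 13.1% and 17.6% in cKO, and the part of this make-up was not tested.

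Twist1, a mesenchymal factor, was at 64.2, 79.0, 35.3 and 69.1 CPM (log2 fold change 0.66, SE 0.14). It was detected in 86.7% of the doublet-rich group 6 and in 55.3% of group 4. The summed mesenchymal list was higher in cKO within each pair, at 235 against 192 CPM in Rep1 and 219 against 183 CPM in Rep2. Twist1 is itself 1 of the 8 genes of that list, so the sum is not a separate observation. Without called doublets the Twist1 difference was 0.51. The part of doublets was not tested further.

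Among genes that were lower in cKO, Atp6v1c2, a subunit of the proton pump that acidifies vesicles, had the smallest p. It lies at chr12:17284721-17329359 (GRCm38, minus strand). Its level was 20.6 CPM in cHet Rep1, 7.93 in cKO Rep1, 33.8 in cHet Rep2 and 19.3 in cKO Rep2. Both cKO levels lay under both cHet levels, and the log2 fold change was -0.96 (SE 0.18, adjusted p = 0.405, edgeR). Atp6v1c2 was a leading gene of group 5, in which 51.1% of cells held it against 9.58% of the rest, and group 5 made up 16.2%, 11.2%, 11.8% and 10.1% of the ectoderm cells. The part of this make-up in the difference was not tested.

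Gadd45g (chr13:51846678-51848468, plus strand, GRCm38) was at 49.8, 24.1, 40.9 and 28.6 CPM. The log2 fold change was -0.71 (SE 0.15, adjusted p = 0.460 by edgeR, 1 by DESeq2), and the cKO levels were under both cHet levels. Without called doublets the difference was -1.18, with an adjusted p of 0.0233 in edgeR's quasi-likelihood test. Gadd45g was found in 94.4% of the neuroblast-like group 7, which made up 4.35%, 6.54%, 7.14% and 3.85% of the ectoderm cells, and the part of this make-up was not tested. Ednra, the endothelin receptor, was at 29.7, 19.2, 34.1 and 19.4 CPM, with a log2 fold change of -0.71 (SE 0.15).

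Dlg2, a synaptic scaffold gene, was at 45.7, 31.7, 31.9 and 5.42 CPM in the same order. Its difference was -0.49 in Rep1 and -2.46 in Rep2, so the size rests on the Rep2 pair. Sparc, a matrix protein, was at 89.5, 66.1, 142 and 112 CPM, and Colec12, a scavenger receptor, at 100.3, 78.6, 100.3 and 76.8 CPM. Crybg3, Cpq, Tmem164 and Ralgapa2 were lower by 0.32 to 0.45 on the log2 scale.

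**Figure D4:**
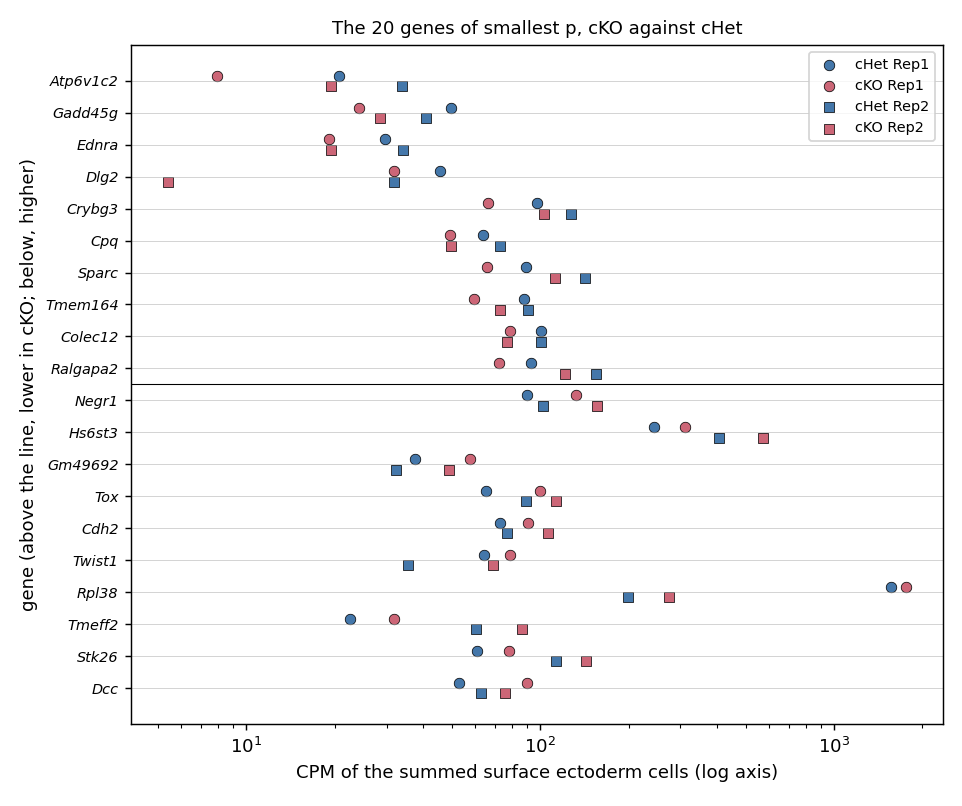
Levels in CPM (x axis, log scale) of the 10 genes per direction with the smallest unadjusted p, in the ectoderm sums of the 4 libraries, with circles for Rep1, squares for Rep2, blue for cHet and red for cKO. For Negr1 both cKO points (132 and 156) lie above both cHet points (89.95 and 102), whereas for Hs6st3 the cKO Rep1 point (311) lies below the cHet Rep2 point (406).

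The rule genes themselves were also compared. Foxi2 was at 95.3 and 158 CPM in cHet and 103 and 209 CPM in cKO (log2 fold change 0.31). Sostdc1 was at 188 and 271 CPM in cHet and 254 and 294 CPM in cKO (0.29). Trp63 and Tfap2a differed by 0.16 and 0.14, and Wnt6 by -0.18. Of the epithelial genes, Epcam, Cldn6 and Cldn7 differed by 0.043 to 0.064 and Cdh1 by -0.18. Wnt6 and Cdh1 were lower in Rep2 (-0.38 and -0.33) but not in Rep1 (0.047 and 0.049). These genes set which cells were counted, so these values are a description with no test.

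By gene group, 24.9% of all genes tested were lower in both replicates and 25.5% were higher in both, with a median log2 fold change of 0.0016. At an unadjusted p under 0.05, 1.91% of all genes were lower and 2.51% higher. In the list of surface ectoderm and early epidermis genes, 22 of 25 were tested and 0 were called, 2 were lower and 1 higher at an unadjusted p under 0.05, and the median was -0.11 (0.0075 in Rep1 and -0.28 in Rep2; -0.032 with every gene of at least 1 count). Krt19, a keratin of simple epithelia, was at 29.1, 22.1, 25.8 and 13.9 CPM (log2 fold change -0.64, SE 0.17, adjusted p = 0.726, edgeR). Tfap2c was at 7.09, 6.28, 20.7 and 9.77 CPM (-0.78, SE 0.25) and Tfap2b differed by 0.42 (SE 0.15).

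Of the preplacodal and epibranchial list, all 17 were tested and none had an unadjusted p under 0.05. Dlx5 was at 8.47, 10.6, 9.75 and 13.4 CPM (log2 fold change 0.43, SE 0.21), and its difference turned to -0.39 when cells were thinned to 5000 UMIs. In the neurogenic list, 14 of 15 were tested, with 2 lower and 2 higher under 0.05, against 1.91% and 2.51% of all genes. Stmn2 (chr3:8509360-8561606, plus strand, GRCm38) was at 2.31, 7.60, 6.62 and 17.8 CPM, with a log2 fold change of 1.54 (SE 0.25, adjusted p = 0.243, edgeR), and its UMIs came from 6, 5, 7 and 45 cells. Stmn2 was a leading gene of group 3, whose share was higher in cKO in both pairs (13.1% against 10.7%, and 17.6% against 13.9%), and the part of this make-up was not tested. Neurog2 was at 53.6, 42.3, 119 and 94.7 CPM (-0.31, SE 0.10), and Dcx, a microtubule protein of young neurons, differed by 0.45 (SE 0.20). The neurogenic median was 0.29 in Rep1 and -0.36 in Rep2, so the medians of the replicates had opposite signs, and the fitted median ranged from -0.63 to 0.52 over the alternatives.

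Regional genes leaned towards higher values in cKO, though none was called. Of 19 tested, 10 were higher and 1 lower in both replicates, against 25.5% and 24.9% of all genes, and the median was 0.21. At an unadjusted p under 0.05, 5 were higher and none lower, against 2.51% and 1.91% of all genes. The 5 were Hoxb2, Hoxb3, Hoxb4, Hoxb5 and Pitx1. Hoxb2 was at 114, 133, 227 and 284 CPM (log2 fold change 0.31, SE 0.07) and Hoxb3 at 18.0, 31.1, 35.7 and 44.0 CPM (0.52, SE 0.16). Hoxb4 differed by 0.34 (SE 0.14), Hoxb5 by 0.43 (SE 0.17; 0.053 in Rep1 and 0.65 in Rep2). Pitx1, a homeobox gene of the first arch, differed by 1.30 (SE 0.55; 1.88 in Rep1 and 0.070 in Rep2) on 13, 24, 7 and 12 UMIs, so the sizes for Hoxb5 and Pitx1 each rest on 1 pair. The Hoxb genes are neighbours in 1 cluster and count as related values. Group 4, in which 81.8% of cells held Hoxb4, made up 11.5%, 13.1%, 13.03% and 17.2% of the ectoderm cells, and the part of this make-up was not tested.

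Of the 22 signals to the arch mesenchyme tested, 3 were higher at an unadjusted p under 0.05 and none lower, against 2.51% and 1.91% of all genes. In both replicates 5 were lower and 4 higher. The median was 0.029 (-0.15 in Rep1 and 0.13 in Rep2) and ranged from -0.016 to 0.22 over the alternatives. Pdgfa was at 196, 256, 199 and 214 CPM (log2 fold change 0.26, SE 0.08), Wnt5a at 44.2, 49.6, 57.8 and 81.2 CPM (0.38, SE 0.12), and Fgf9 differed by 0.39 (SE 0.15). Of 29 receptors and targets, 3 were lower and 1 higher under that p. In both replicates 10 were lower and 6 higher, against 24.9% and 25.5% of all genes. Sp5, a WNT target and a leading gene of group 5, was at 8.78, 2.64, 10.1 and 7.86 CPM (-0.74, SE 0.31; -1.60 in Rep1 and -0.32 in Rep2). Ptch1, the hedgehog receptor, was at 73.6, 48.9, 92.3 and 86.5 CPM (-0.27, SE 0.12; -0.56 in Rep1 and -0.067 in Rep2). Both sizes rest mainly on the Rep1 pair, and the part of group 5 was not tested. After thinning to 5000 UMIs, both turned, Sp5 to 0.085 and Ptch1 to 0.12.

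Of 25 junction genes tested, none was called and 1 (4.0%) had an unadjusted p under 0.05, close to the 4.42% of all genes. In both replicates 11 were lower and 3 higher, against 24.9% and 25.5% of all genes, and the median was -0.085. Nectin1 was at 18.0, 13.2, 30.8 and 22.4 CPM (log2 fold change -0.43, SE 0.16) and Cgn, which encodes cingulin of the tight junction, at 22.6, 15.5, 44.0 and 38.7 CPM (-0.28, SE 0.15). In the basement membrane list, 6 of 23 were lower and 1 higher in both replicates, and Col18a1 was at 140.2, 116, 189.9 and 164 CPM (-0.21, SE 0.08; 0.015 after thinning). Of the 9 genes of the KMT2D complex tested, none had an unadjusted p under 0.05. In both replicates 5 were lower and 0 higher, and the median was -0.12, with Ncoa6 at 61.6, 51.5, 81.5 and 73.3 CPM.

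Ribosomal protein genes were the list with the most members under an unadjusted p of 0.05. Of 74 tested, 23 were higher and none lower, against 2.51% and 1.91% of all genes, 65 were higher in both replicates, against 25.5% of all genes, and the median was 0.098. Rpl38 was at 1562 and 1752 CPM in cHet Rep1 and cKO Rep1 but at 199 and 274 CPM in Rep2, so its level differed far more between the replicates, which differ in kit and in embryos, than between genotypes (log2 fold change 0.33, SE 0.07). Rpl29 was likewise at 1277 and 1643 CPM in Rep1 and 23.3 and 24.6 CPM in Rep2. In oxidative phosphorylation, 46 of 88 genes were higher in both replicates (median 0.070; 0.017 after thinning), with Atp5k at 273, 310.2, 36.9 and 52.4 CPM, and in the proteasome list 15 of 35 (median 0.031; 0.0067 after thinning). Of G2/M genes, 28 of 54 were lower in both and 7 higher, against 24.9% and 25.5% of all genes (median -0.041; 0.0013 in cells with no endoderm or otic gene). Cdc20 was at 115, 87.6, 157 and 139 CPM. S phase genes gave a median of 0.036 (0.084 in Rep1 and -0.0058 in Rep2; -0.035 with at least 3 ectoderm genes), with Pcna at 188, 197, 216 and 263 CPM. An unadjusted p under 0.05 was found for 5.68% of oxidative phosphorylation, 0% of proteasome, 3.70% of G2/M and 11.6% of S phase genes. Among all genes the share was 4.42%.

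**Figure D5:**
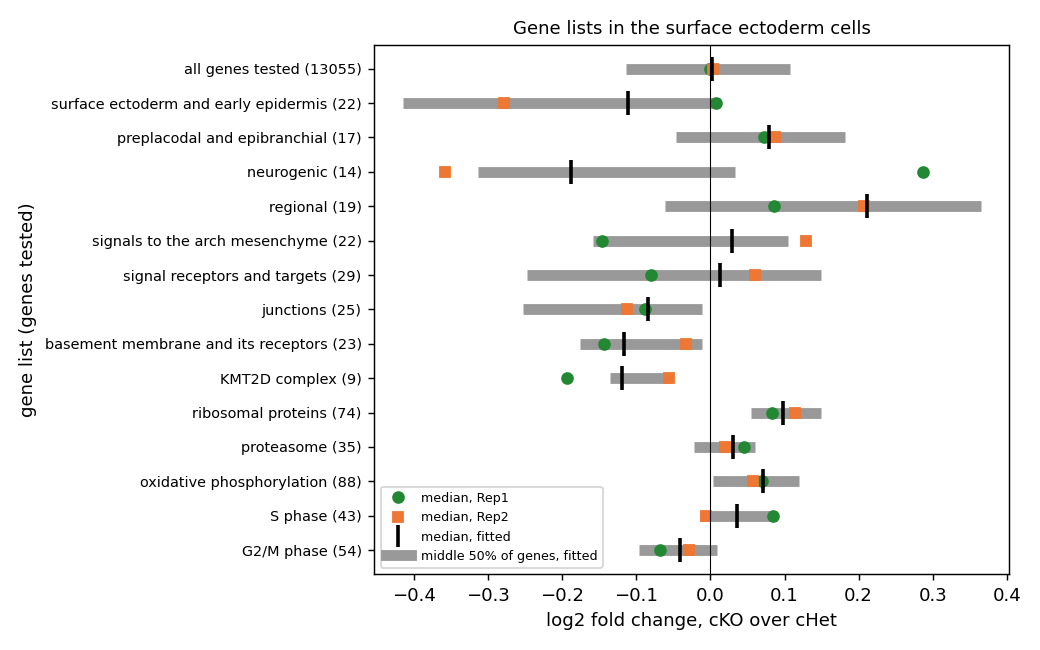
Log2 fold changes of cKO against cHet in ectoderm (x axis) for each gene list (y axis, with the number of genes tested), with a black tick for the median of the fitted values, a grey bar for the middle 50% of genes, a green circle for the median in Rep1 and an orange square for the median in Rep2. The fitted median is 0.098 for ribosomal proteins and 0.21 for the regional list, and the Rep1 and Rep2 medians of the neurogenic list (0.29 and -0.36) lie on opposite sides of 0.

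The genotype difference was also tested against that of the other epithelia. Against endoderm, 34 of 12903 genes (0.264%) differed in their response at an adjusted p under 0.05, with 25 lower and 9 higher in ectoderm. The 34 include 1 gene of the rule, Pax1, which helped to choose the cells of both types, so its call is no result. Against otic epithelium, 46 of 12748 genes (0.361%) differed, with 18 lower and 28 higher. Negr1 and Gadd45g, the genes described above, were among the genes that differed from otic epithelium. Negr1 was at 68.0, 38.9, 32.3 and 28.9 CPM in otic cells of the 4 libraries, so that the ectoderm response exceeded the otic response by 1.08 log2 units (SE 0.16, adjusted p = 2.57e-05, edgeR). Gadd45g was at 9.07, 21.8, 10.2 and 20.2 CPM in otic cells, higher in cKO within each pair, and the difference was -1.81 (SE 0.26, adjusted p = 8.91e-06). The summed neuroblast list, which does not include Gadd45g, was at 16.3, 75.5, 75.7 and 93.0 CPM in otic cells. In ectoderm it was at 122, 113, 233 and 176 CPM. The part of neuroblast-like cells in the Gadd45g difference was not tested. Against endoderm, the differences were 0.12 (SE 0.22) for Negr1 and -0.40 (SE 0.45) for Gadd45g and did not pass the test, which does not show that the responses are equal.

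These counts depended on the block and on depth. The replicate block of this test is the type-by-replicate term, fitted beside a block for each library that was always kept. Without the replicate block, 2 genes differed from endoderm and 0 from otic epithelium, and with every cell thinned to 5000 UMIs, 2 and 1. With 1 library left out, which also dropped the type-by-replicate term, the counts were 14 to 27 against endoderm and 6 to 57 against otic epithelium. These are above the 2 and 0 of all 4 libraries without the block, and since both choices changed at once they do not show the part of a single library. In those fits Negr1 and Gadd45g were not called against otic epithelium without cHet Rep1, nor Negr1 without cKO Rep2. Neither was called with all 4 libraries without the block or after thinning. Both were called when doublets were left out. Many of the genes with the widest differences rested on few cells. Tnnt2, a troponin of cardiac muscle, had 78 of its 88 ectoderm UMIs of cHet Rep1 in 1 cell, and 78 of 78 otic UMIs of cKO Rep1 in 1 cell. Rbp4, a retinol carrier, had 651 of its 683 endoderm UMIs of cKO Rep2 in 1 cell. The cardiac muscle list summed to 66.8 CPM in the ectoderm of cHet Rep1 and to 6.61 to 29.0 CPM in the other libraries.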

How the data were processed

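The authors deposited UMI counts per gene and barcode, as 10x matrices made by Cell Ranger. The submitters' processing notes name version 8.0.1 and the build mm10, while the file headers give 7.0.1 for both Rep1 libraries. The deposited counts are whole numbers, and the correction for ambient RNA (SoupX) that the study's methods describe is a later step that was not repeated here. Cells were selected by the rule given above, and their raw counts were summed per library. Cells and gene lists were chosen with earlier results of these data known.

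Sums were tested with edgeR 4.0.16 (quasi-likelihood, TMM, filterByExpr) in R 4.3.3, blocked on the replicate number, with Benjamini-Hochberg adjustment over all genes at 0.05. The test of the type-by-genotype term used the library as a block and held a type-by-replicate term. DESeq2 1.42.0 was an alternative. The replicate number marks the kit, so it pairs the samples. Deviations from the genotype means correlated at 0.693 between same-numbered libraries. With 2 libraries per genotype this is 1 value for both replicates. The first principal component held 74.7% of variance, and what it separates was not examined. Doublets were scored with Scrublet (scanpy 1.11.5). Its automatic limit marked 0.0320% and 0.0150% of the Rep1 cells. The score was therefore cut at the rate expected for each kit and number of cells (3.90% to 5.33%). Cells with a score equal to the cut were also marked, so 4.03% to 5.78% of the scored cells were called. Called doublets were left out in 1 alternative. Groups came from Leiden clustering (resolution 0.5, 1500 variable genes, 20 components, 15 neighbours, leidenalg 0.10.2). Thinning drew 5000 UMIs per cell.

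Named genes were Kmt2d, Tbx1, the rule genes, the 10 genes per direction with the smallest p (same sign in both replicates, at least 20 CPM in the higher genotype), 2 genes per list, 5 per direction of each difference between types, and the 15 widest ectoderm genes. A few genes that this rule names are not reported here. Other genes were named after their values were seen. Coordinates are from GENCODE M21 (GRCm38, the mm10 build). Scripts were tested on simulated data.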

Additional observations from a re-analysis of the deposited data

Results flagged for a closer look

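Genes were singled out where the genotype difference in ectoderm itself differed from that in another epithelium by edgeR's quasi-likelihood test at an adjusted p under 0.05. Values are ectoderm minus the other epithelium on the log2 scale. Against endoderm 34 genes differed. The widest lower were Cdh12 at -8.13, Rbp4 at -3.89, Thsd7b at -3.22, Tubb3 at -3.20 and Plcxd3 at -3.11. Cdh12, a cadherin, had 0 endoderm UMIs in both cHet libraries and 6 and 26 in the cKO libraries, so its difference depends on the prior count of the fit. Of 64 endoderm UMIs of Tubb3, a neuronal tubulin, in cKO Rep2, 46 came from 1 cell. Among the widest higher were Pcdh9 at 2.35, Nrxn3 at 1.42, D030025E07Rik at 1.41 and Erbb4 at 1.18.

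Against otic epithelium 46 genes differed. The widest lower were the cardiac muscle genes Myh7 at -7.62, Ankrd1 at -7.18, Tnnt2 at -7.09, Tnnc1 at -5.41 and Myl4 at -5.20. In cHet Rep1, 84 of 100 ectoderm UMIs of Myl4 and 52 of 56 of Ankrd1 came from 1 cell each, and in cKO Rep1, 58 of 60 otic UMIs of Myh7 and 51 of 59 of Tnnc1 did. The widest higher were Tfap2b at 5.73, Pax3 at 5.28, Fam155a at 3.51, Stmn2 at 3.21 and Prr16 at 2.56. Of 29 otic UMIs of Tfap2b in cHet Rep1, 27 came from 1 cell, and of 84 otic UMIs of Fam155a in cHet Rep2, 82 did.

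The ectoderm share of kept cells was singled out because the replicate pairs went opposite ways, with cKO minus cHet at -2.45 percentage points in Rep1 and 1.47 in Rep2. The difference between the pairs was not tested.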

How the results depend on the processing

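With 2 libraries per genotype, the replicate block leaves 1 residual degree of freedom in the ectoderm comparison, and genotype is compared within replicate numbers only. The count of 0 called genes in ectoderm became 3 with RLE scaling, 81 with every gene of at least 1 count, 2 without called doublets, 10 at a mitochondrial limit of 5%, 1 with at least 3 ectoderm genes, 1 with no endoderm or otic gene and 4 after thinning. Without the replicate block, with DESeq2, and in Y-only or Xist-only cells (the last 2 chosen after seeing the data) it was 0. With high-hemoglobin cells out it was also 0, but no ectoderm cell was removed, so that fit equals the main fit and shows no stability. With 1 library left out the block had to be dropped, and the 0 calls of those fits show no stability, since all 4 libraries without the block also gave 0. The count against endoderm was 2 without the replicate block, 2 after thinning and 14 to 27 without 1 library. The count against otic epithelium was 73 with every gene of at least 1 count, 0 without the replicate block, 1 after thinning and 6 to 57 without 1 library, in fits that had no type-by-replicate term. The causes were not tested.

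Of 764 alternative values for 79 named genes, 703 kept direction and side of the threshold, 39 newly passed it and 22, in 14 genes, changed sign. The 764 include the setting with high-hemoglobin cells out, which removed no ectoderm cell, so its values could not change. After thinning, Tbx1 was at 0.078, Cldn7 at -0.071, Wnt6 at 0.021, Dlx5 at -0.39, Sp5 at 0.085, Ptch1 at 0.12, Col18a1 at 0.015 and Erbb4 at 0.40. Without the replicate block Lmx1a was at -0.014 and Thsd7b at 0.26, and with DESeq2 Col9a2 was at -0.00722 and Thsd7b at 0.044. With at least 3 ectoderm genes, Thsd7b was at 2.19, Tubb3 at 0.58, Nrxn3 at -0.46, Erbb4 at 0.087 and Prr16 at -0.047. With no endoderm or otic gene, Thsd7b was at 0.54, Tubb3 at 0.80, Nrxn3 at -0.080 and Erbb4 at 0.43, and without doublets Erbb4 was at 0.15.

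The ectoderm share of cHet Rep1 was 2.61% with no endoderm or otic gene, 2.85% with at least 2000 genes and 0.609% when the rule was applied to thinned cells, which gave 0.330% in cKO Rep1, 0.636% in cHet Rep2 and 1.05% in cKO Rep2. List medians that moved beyond their spread were, after thinning, preplacodal 0.056, junctions -0.054, basement membrane -0.015, ribosomal 0.066, proteasome 0.0067 and oxidative phosphorylation 0.017. With no endoderm or otic gene they were preplacodal 0.094, junctions -0.12, oxidative phosphorylation 0.058 and G2/M 0.0013. With at least 3 ectoderm genes they were preplacodal 0.027, neurogenic 0.52 and S phase -0.035. Preplacodal was 0.022 without doublets and oxidative phosphorylation 0.053 without the replicate block.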

Other observations

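The ectoderm cells of the pools differed in the share with sex-linked transcripts. A UMI of a Y-linked gene was found in 45.1%, 34.6%, 41.6% and 34.5% of ectoderm cells in the 4 libraries (Rep1 cHet and cKO, then Rep2 cHet and cKO), and a UMI of Xist in 71.9%, 77.6%, 67.2% and 74.4%. Both were found in 44, 13, 21 and 44 cells. The share with a Y-linked UMI was thus lower in cKO within each pair of ectoderm cells, whereas among all kept cells it was higher in cKO within each pair, at 31.9%, 38.0%, 37.6% and 42.9%. Among kept cells with a Y-linked UMI and no Xist, the ectoderm share was 5.82%, 1.31%, 2.89% and 2.82%. It was thus lower in cKO in Rep1 and nearly equal in Rep2 (78 of 2702 cells in cHet and 126 of 4471 in cKO). Among cells with Xist and no Y-linked UMI it was 3.45%, 1.72%, 2.32% and 4.60%. These differences were not tested. With cells of either kind tested alone, edgeR's quasi-likelihood test called 0 genes, with 338 at an unadjusted p under 0.05 in cells with a Y-linked UMI and no Xist and 472 in cells with Xist and no Y-linked UMI.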
